A study of Mus musculus with 2 samples.

Results

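The genes described here carry the prolactin and growth hormone signal through the Janus kinase Jak2 and the transcription factors Stat5a and Stat5b in the mouse mammary gland. They were chosen by gene symbol, as the hormone receptors Prlr and Ghr, the kinase Jak2, Stat5a and Stat5b, and the Stat5 target genes Cish, Socs2 and Tph1, and every probe set that the platform annotation gave to one of them was taken. Of the 8 genes, 7 had a named probe set, with 17 probe sets of the 45037 that were not controls, and Prlr was not analysed here. The samples were glands of CD1 mice taken on day 1 of involution and on day 0, the day on which the pups were forcibly removed at day 10 of lactation from litters of 6. Each group was 1 pool of RNA from 5 mice on 1 Affymetrix Mouse Genome 430 2.0 array, and neither group carried a mutation or a drug. The females were 6 weeks old when bought, and the labels do not state their age at sampling. With 1 array a day there is no replicate error, no difference below has a test, and the number of arrays limits the precision. In whole tissue, fewer cells of a type and less RNA per cell cannot be told apart.

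Prolactin and growth hormone bind receptors that have no kinase activity of their own and hold Jak2 on their inner side. Bound hormone activates Jak2, which phosphorylates the receptor and Stat5, and paired Stat5 then enters the nucleus and binds DNA at palindromic sites. Stat5a is the main form in the secretory epithelium of the lactating gland, where the pathway maintains milk protein genes and cell survival, while Stat5b is best known for growth hormone responses in liver. Cish and Socs2 are induced by Stat5 and bind phosphorylated receptors, which limits the signal. Tph1 encodes the enzyme that limits serotonin synthesis outside the brain, and in the mammary gland it responds to prolactin.

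The core of the Stat5 binding site is TTCNNNGAA, which reads the same on both strands. It was searched in RefSeq promoter windows of GRCm38.p6, which hold 250 bases before and 50 bases after an annotated start. Of all 32851 windows, 8.30% held the motif and 0.457% held it at least 2 times. Of the 7 members with a named probe set, 6 had a window, 10 windows in all, and the motif was in 1 of them, that of Cish. Socs2 had no window, and Prlr was not looked up. The stretch with both Cish matches is shown because Cish is a Stat5 target whose signal was measured, and that of the beta-casein gene Csn2, a milk protein target of Stat5, is shown for comparison. Capitals mark the motif.
Cish: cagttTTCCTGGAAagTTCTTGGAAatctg
Csn2: tcacgtagacTTCTTGGAAttgaagggact
The Cish stretch lies at chr9:107296654-107296683 on the plus strand, with the matches at bases 1 to 9 and 12 to 20 counted from the annotated start. The Csn2 stretch lies at chr5:87699499-87699528 on the minus strand, with the match 93 to 85 bases before the start (-93 to -85). The second Cish match and the Csn2 match have the same letters. A match is a description of the letters in these windows and not a binding site shown here.

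Signals are MAS 5 signals, a linear brightness per probe set that cannot be compared between probe sets. A signal under 77.7, the median over both arrays, was raised to that floor, and ratios are given as log2 of day 1 over day 0, and a probe set was measured when at least 1 array was above it. All 7 genes and 15 of the 17 probe sets were measured, 13 of them above the floor on both arrays. Stat5a and Socs2 were lower on day 1, Stat5b and Cish were lower by less than 2-fold, and Jak2 and the brightest Ghr probe set were higher by less than 2-fold. At least 2-fold lower were 2 of the 7 genes, beside 13.3% of all 13239 measured genes, and 0 were at least 2-fold higher, beside 10.4%. By probe set, 4 of 15 were at least 2-fold lower, beside 13.1% of 27062, and 0 at least 2-fold higher, beside 9.08%. The median log2 ratio was -0.80 over the 7 genes and -0.12 over all measured genes, and 5 of 7 member genes were below 0, beside 56.7%. Of the 15 member probe sets, 12 were below 0, beside 59.8%.

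**Figure D1:**
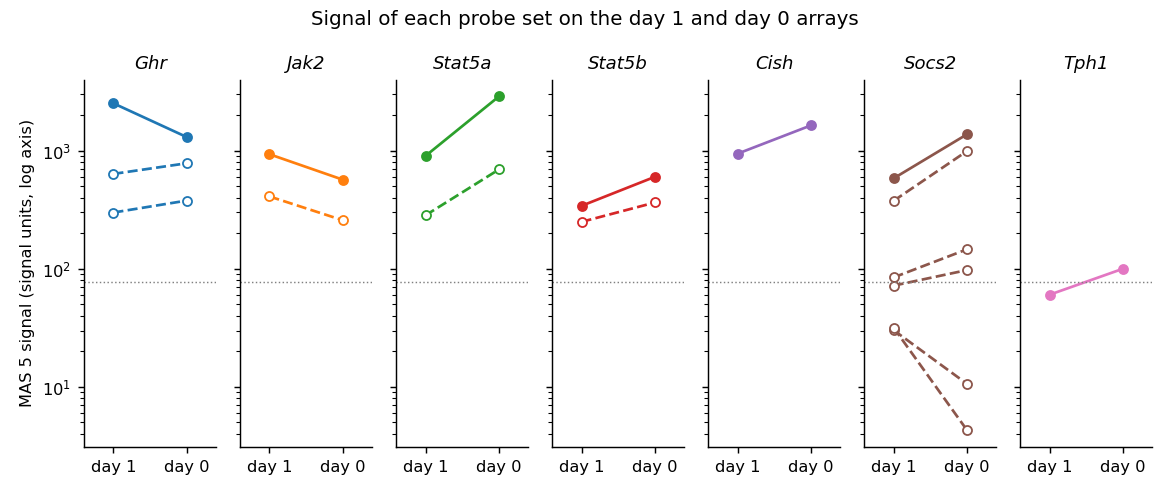
MAS 5 signal (log axis) of each of the 17 probe sets on the day 1 array (left) and the day 0 array (right), a panel for each of the 7 genes. Filled points and solid lines mark the brightest probe set of a gene, open points and dashed lines the others, and the dotted line the floor of 77.7. Both probe sets of Stat5a slope up towards day 0 and both of Jak2 slope down, while the 3 of Ghr do not run the same way.

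The receptor gene Ghr had 3 probe sets. The brightest, 1417962_s_at, had a signal of 2507.7 on day 1 against 1298.0 on day 0, 1.93-fold higher (log2 ratio 0.95). Probe set 1451501_a_at had 634.2 on day 1 against 780.5 on day 0 (log2 ratio -0.30), and 1451871_a_at had 298.8 against 377.3 (-0.34). The brightest probe set was thus higher on day 1 while the other 2 were slightly lower, and the log2 ratios of the brightest and the dimmest differed by 1.29. For scale, where a gene had several probe sets their log2 ratios spread with a pooled SD of 0.56 over 3943 genes, which describes probe sets and not mice. The mouse Ghr gene makes, by alternative splicing, a membrane receptor and a soluble growth hormone binding protein, and the annotation used here does not say which transcript each probe set detects. The suffix of the brightest (_s_at) differs from that of the other 2 (_a_at), and all 3 are among the shared probe sets left out in the closing section. A single direction for Ghr cannot be given from these values.

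Jak2 was the only member measured by more than 1 probe set with all of them higher on day 1. Probe set 1421066_at had a signal of 930.2 on day 1 against 566.2 on day 0, 1.64-fold higher (log2 ratio 0.72). Probe set 1421065_at had 408.6 against 256.8, 1.59-fold higher (0.67). Both are under 2-fold, and their log2 ratios differ by less than the pooled SD between probe sets. The Jak2 ratio of the brighter probe set was higher than those of 83.2% of all measured genes.

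Stat5a had the lowest ratio of the members. Probe set 1421469_a_at had a signal of 900.2 on day 1 against 2869.2 on day 0, 3.19-fold lower (log2 ratio -1.67), and only 3.66% of measured genes had a lower ratio. The second, 1450259_a_at, had 283.1 against 691.5, 2.44-fold lower (-1.29). Both Stat5a probe sets were at least 2-fold lower on day 1. For Stat5b, 1422103_a_at had 340.4 on day 1 against 599.5 on day 0, 1.76-fold lower (-0.82), and 1422102_a_at had 249.1 against 363.4, 1.46-fold lower (-0.54). Both Stat5b probe sets were lower by less than 2-fold, and 18.6% of measured genes had a lower ratio than the brighter one. The log2 ratio of Stat5a was 0.86 below that of Stat5b (difference -0.86). Stat5a and Stat5b are close paralogs, and whether their probes tell them apart fully cannot be seen from the deposited values. All 4 probe sets carry the suffix that Affymetrix gives to sets shared by several transcripts of a gene.

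Jak2 and Stat5a differed by -2.39 on the log2 scale (Stat5a minus Jak2), and Jak2 and Stat5b by -1.53. A scaling that multiplies a whole array leaves these differences unaltered. In all 7 scalings described below, the ratios of both Jak2 probe sets were above the median of all measured genes. Those of both Stat5a and both Stat5b probe sets were below it. These are ratios of mRNA signal and not of protein or phosphorylation, which were not measured.

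The feedback genes were lower on day 1. Cish, which had 1 probe set, had a signal of 940.2 on day 1 against 1632.3 on day 0, 1.74-fold lower (log2 ratio -0.80), with 19.3% of measured genes below it. Socs2, which restrains growth hormone signalling, had 6 probe sets. The brightest, 1449109_at, had 581.4 on day 1 against 1372.4 on day 0, 2.36-fold lower (-1.24), and 8.69% of measured genes had a lower ratio. Probe set 1418507_s_at had 375.3 against 990.3, 2.64-fold lower (-1.40). These bright probe sets of Socs2 were both at least 2-fold lower. Of the dim ones, 1442586_at had 84.4 on day 1 against 146.0 on day 0 (-0.79), and 1446085_at had 71.9 against 97.4, at least 1.25-fold lower because its day 1 signal was under the floor. The last pair was under the floor on both arrays, with 30.2 on day 1 against 10.6 on day 0 for 1438470_at and 31.7 against 4.3 for 1441476_at, and gives no fold. All 4 measured Socs2 probe sets were on the lower side as deposited. Among the dim ones, 1446085_at was above 0 after quantile normalization (0.17), loess (0.19) and hybridisation control scaling (0.54), and 1442586_at under the last of these (0.37).

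Tph1 was dim. Its 1 probe set had a signal of 60.3 on day 1, under the floor, against 100 on day 0, at least 1.29-fold lower (log2 ratio -0.36). The dimmest 25% of measured genes by mean signal had a median of -0.33, close to this bound. Mast cell and neuroendocrine markers, for other cells that make serotonin, gave 6 measured genes of 8, of which 1 passed 2-fold on the higher side and 0 on the lower, with a median log2 ratio of -0.24. The summed signal was 2083.5 on day 1 against 812.4 on day 0, but 566.5 against 783.1 without Kit, which was singled out after its values were seen. Chga and Ms4a2 were under the floor on both arrays. Their part in the Tph1 signal was not tested.

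**Figure D2:**
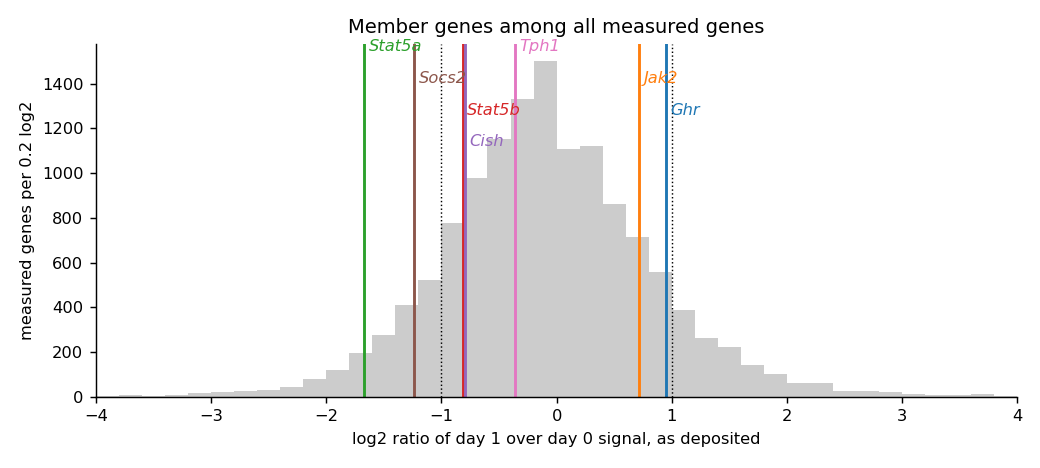
Number of measured genes (y axis, per bin of 0.2 log2) by log2 ratio of day 1 over day 0 signal (x axis), with a coloured line at the brightest probe set of each member. Dotted lines mark 2-fold, and 25 genes beyond 4 log2 in either direction are not shown. Stat5a and Socs2 lie past the lower 2-fold line, and Ghr and Jak2 lie between 0 and the upper one.

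The scaling of the arrays decides how many members pass 2-fold. As deposited, both arrays had the same mean of 250 after 2% of probe sets were trimmed at each end. The 15 hybridisation control probe sets, bacterial and phage transcripts that the usual protocol adds in equal amount, had a median log2 ratio of -1.16. Their log2 ratios ranged from -2.14 to -0.50. Scaling on the median of these controls moved the median of all measured genes to 1.02. The other scalings were median centring, quantile normalization, loess, and scaling on ribosomal protein genes or on housekeeping genes. Across the deposited values and these 6 scalings, the log2 ratio of the brightest Stat5a probe set ranged from -1.81 to -0.51 and that of Socs2 from -1.38 to -0.08, below 0 in all 7. Jak2 ranged from 0.59 to 1.88 and the brightest Ghr probe set from 0.80 to 2.11, above 0 in all 7. Stat5b, Cish and Tph1 were below 0 in 6 of 7 and at 0.35, 0.37 and 0.29 under hybridisation control scaling.

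Set against the median of all measured genes under the same scaling, the brightest probe set of each member kept its side. Stat5a was between -1.78 and -1.52 from that median, Socs2 between -1.35 and -1.09, Stat5b between -0.85 and -0.67, and Cish between -0.91 and -0.65. Tph1 was between -0.73 and -0.03, which includes values next to 0. Jak2 was between 0.62 and 0.87 above the median and the brightest Ghr probe set between 0.85 and 1.10, whereas the other 2 Ghr probe sets were below it in all 7 scalings. The dim Socs2 probe set 1446085_at changed sides, below the median in 5 scalings and above it in 2 (-0.48 to 0.23).

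**Figure D3:**
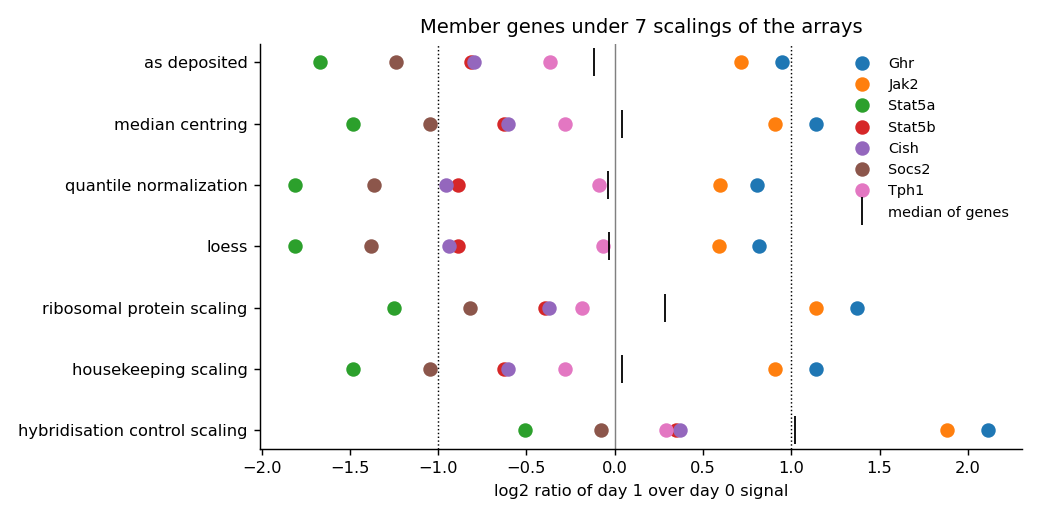
Log2 ratio of day 1 over day 0 signal (x axis) of the brightest probe set of each member under 7 scalings (rows), with the median of all measured genes as a black tick and 2-fold as dotted lines. Every row holds Stat5a as its lowest point and Ghr as its highest, and the hybridisation control row is shifted to the right as a whole, with the gene median at 1.02.

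The gland's own cell markers are given beside these values. All 8 secretory alveolar markers were at least 2-fold lower on day 1, with a summed signal of 267218 on day 1 against 652162 on day 0 and none under the floor. All but Glycam1 are also in the list of other prolactin and Stat5 target genes below, with the same probe sets, so they are not a separate result. Of the 8 markers, 7 exceeded 50% of an array's top signal on both days, where brightness may not follow RNA amount. The top signal itself was 40090.2 on day 1 against 108570 on day 0. The median of the 8 was -1.26 log2 as deposited, -0.05 after quantile normalization and -0.10 under hybridisation control scaling. Of 12 luminal epithelial markers, 8 passed 2-fold on the higher side and 0 on the lower, with a summed signal of 94241.5 against 30235.1. Of 9 measured adipocyte markers, cells that also express Ghr, 0 were past 2-fold in either direction, with sums of 25267.6 on day 1 and 24410.3 on day 0, and Aqp7 was under the floor on both arrays. Of 9 fibroblast and stroma markers, 2 were at least 2-fold higher and 0 lower, with sums of 24596.5 on day 1 and 19986.7 on day 0. Macrophage markers gave 4 of 10 at least 2-fold higher and 1 lower, with sums of 37833.7 on day 1 and 10709.0 on day 0. Without Cd14, also singled out after its values were seen, the macrophage sums were 8823.1 on day 1 and 6892.2 on day 0. A sum is set mostly by the brightest probe sets of its list. The part of a different cell make-up in the members' ratios was not tested. Beta-actin control probe sets gave a 3′ over 5′ ratio of 1.51 on day 1 against 2.50 on day 0. Those of pyruvate carboxylase gave 7.86 on day 1 against 13.5 on day 0, and the Gapdh ratio was nearly equal, with 1.48 on day 1 against 1.52 on day 0. The part of RNA quality in the members' ratios was not tested either.

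Related genes were taken from 8 lists with 83 genes, of which 75 had a named probe set and 66 were measured. On day 1, 20 of these had a signal at least 2-fold lower, 30.3% of those measured beside 13.3% of all genes. At least 2-fold higher were 8, 12.1% beside 10.4%. This comparison of all lists together was made as deposited only. Of the 20 lower genes, 12 were in the list of other prolactin and Stat5 target genes, whose count fell with each of the 6 other scalings. Among those 12 were 7 milk protein genes above 50% of an array's top signal on both days, which raise the share of 30.3%. The counts of single lists below are to be read against the same shares of all genes. Each list is described by the brightest probe set of each gene. Of the genes named below as lower on day 1, Stat2 (0.30 log2), Epor (0.10), Elf5 (0.09), Igf1 (0.23) and Igfbp3 (0.78) were above 0 under hybridisation control scaling, and Igfbp3 also after ribosomal protein scaling (0.04).

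Of the hormones themselves, Prl was under the floor on both arrays, with a signal of 6.7 on day 1 and 23.3 on day 0. The probe set of Gh had 41.8 on day 1 against 163.5 on day 0, at least 2.10-fold lower, while its other probe set gave a bound of only -0.73 log2. With any of the 6 other scalings Gh was under 2-fold. Both hormones are made mainly in the pituitary.

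Among 6 measured other Janus kinases and Stats, 1 was at least 2-fold higher and 0 lower, with a median log2 ratio of 0.12. Stat3, which acts in the death and regression of the epithelium after weaning, had 6682.6 on day 1 against 1641.4 on day 0, 4.07-fold higher, with 0.54 to 1.55 log2 at its other probe sets. Stat5b, Stat5a and Stat3 lie next to each other in that order on chromosome 11 in the RefSeq gene table of GRCm38.p6, so the neighbours Stat3 and Stat5a differed by 3.70 on the log2 scale. Stat2 was 1.82-fold lower on day 1 (97.1 against 176.3), and Jak1, which serves receptors of the interleukin 6 family, was 1.42-fold higher (2153.0 against 1516.2) with other probe sets from -0.60 to 0.37 log2.

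Of 14 measured inhibitors of the pathway (Socs proteins, phosphatases and Pias proteins), 4 passed 2-fold on the higher side and 0 on the lower, with a median log2 ratio of 0.27. Socs3, the feedback inhibitor of Stat3 signalling, had 1300.4 on day 1 against 138.4 on day 0, 9.40-fold higher, with 2.95 log2 and at least 2.67 log2 at its other probe sets. Socs3 and the member Socs2 differed by 4.47 log2. Socs1 was under the floor on both arrays (13.2 on day 1 and 61.0 on day 0). The phosphatase genes Ptpn2 and Ptpn11 were 2.62-fold and 2.46-fold higher, but their other probe sets ranged from -0.06 to 0.78 and from -0.55 to 0.93 log2, the last pair as bounds. The fourth was Pias4 at 1.20 log2, with 0.38 at its other probe set, named after its value was seen.

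**Figure D4:**
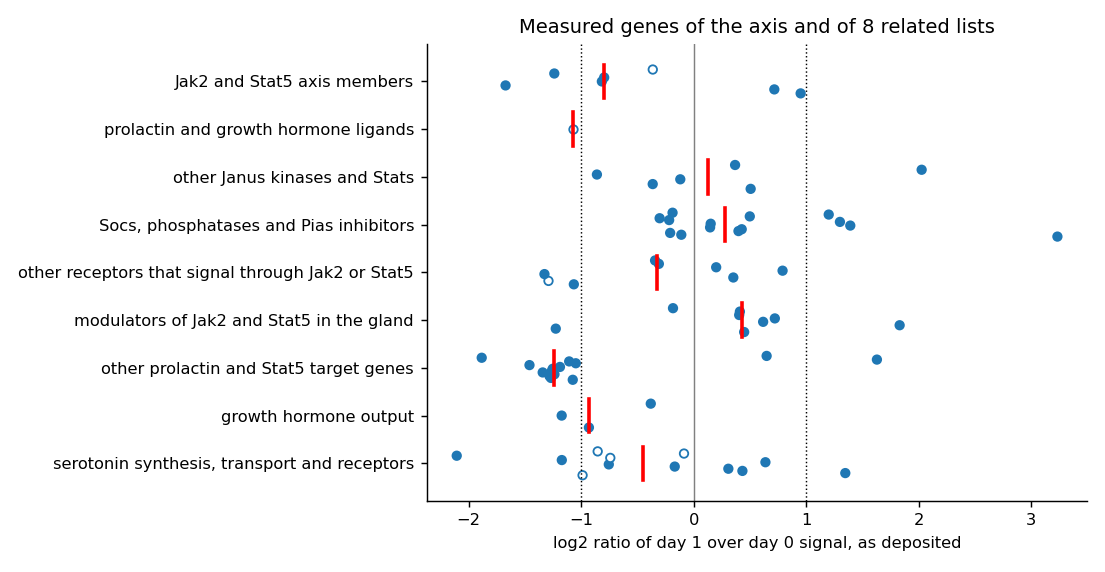
Log2 ratio of day 1 over day 0 signal (x axis) of each measured member and each measured gene of 8 related lists (rows). Open points have a signal under the floor on 1 array, red lines are list medians and dotted lines mark 2-fold. Most target genes sit left of the lower 2-fold line and Socs3 is the point farthest right.

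Of 8 measured other receptors that use Jak2 or Stat5, 3 were at least 2-fold lower on day 1 and 0 higher, with a median log2 ratio of -0.33. Csf2rb, the shared chain of the interleukin 3 and GM-CSF receptors, was 2.51-fold lower (522.0 on day 1 against 1309.3 on day 0), with 0.20 log2 at its other probe set. Il2rb was at least 2.45-fold lower and the erythropoietin receptor gene Epor 2.09-fold lower, both dim, with 65.6 on day 1 against 190.1 on day 0 for Il2rb and 78.5 against 164.3 for Epor. The list median was above 0 after ribosomal protein scaling (0.09) and hybridisation control scaling (0.84).

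Among 8 measured modulators of the pathway, 1 was at least 2-fold higher and 1 lower, with a median log2 ratio of 0.43. Itgb1, the integrin subunit through which laminin permits prolactin signalling in mammary cells, was 3.56-fold higher on day 1 (3080.5 against 866.5), with 0.24 to 1.71 log2 at its other probe sets. Sh2b1, an adaptor that binds and enhances Jak2, was 2.34-fold lower (424.0 against 991.9), and the GTPase gene Rac1 was 1.65-fold higher (9892.1 against 6002.5), with 1.09 log2 at its other probe set.

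Of 14 measured other target genes of prolactin and Stat5, 12 were at least 2-fold lower on day 1 and 1 higher, with a median log2 ratio of -1.25. Of these genes, 7 milk protein genes exceeded 50% of an array's top signal on both days, where brightness may not follow RNA amount. The log2 ratios of their brightest probe sets lay between -1.34 and -1.19. Their other measured probe sets gave, after the floor, -3.95 to -0.60 for Csn1s2a, -1.90 for Csn3 and -1.45 for Csn2. Of the other 7 target genes, 5 were at least 2-fold lower and 1 higher, with a median of -1.08. Pim1, a kinase gene induced by Stat5, was 3.69-fold lower (389.4 on day 1 against 1437.5 on day 0), with -1.25 log2 at its other probe set. Akt1, a survival kinase gene, was 2.75-fold lower (1325.5 against 3645.9), and its other probe sets were at -1.50 and -1.27 log2. Elf5, the factor that directs alveolar differentiation, was 2.11-fold lower (11038.6 against 23257), with -1.62 at its other probe set. In the other direction, Bcl2l1, which encodes Bcl-x, was 3.09-fold higher (972.3 on day 1 against 314.6 on day 0). Its other probe sets, under the floor on day 0, were higher by at least 1.15 and at least 2.53 log2. Scaling altered the count. At least 2-fold lower were 8 genes after median centring or housekeeping scaling, 3 after quantile normalization or loess, 2 after ribosomal protein scaling and 0 under hybridisation control scaling. The list median was -0.05 after quantile normalization and -0.08 under hybridisation control scaling.

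The growth hormone output genes had a median log2 ratio of -0.93, and hybridisation control scaling put that median at 0.23. Of the 3 genes, 1 was at least 2-fold lower on day 1 and 0 higher. Igfals, which stabilises circulating insulin-like growth factors, was 2.26-fold lower (704.6 on day 1 against 1589.3 on day 0). Igf1 was 1.91-fold lower (487.8 against 930.4), with -1.43 to -0.40 log2 at its other probe sets, and Igfbp3 1.30-fold lower with 0.10 at its other probe set.

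In the serotonin list 12 genes were measured, with 2 at least 2-fold lower on day 1 and 1 higher and a median log2 ratio of -0.46, above 0 under hybridisation control scaling (0.41) and with a floor at the 75th percentile (0.22). The number at least 2-fold lower was 5 with a floor at the 25th percentile and 0 with the floor at the 75th. The receptor gene Htr1d was 4.31-fold lower (79.1 on day 1 against 340.6 on day 0), but its other probe set, under the floor on day 1, gave a bound of -0.43 log2. Gch1, the first enzyme of the tetrahydrobiopterin cofactor that Tph1 needs, was 2.54-fold higher (667.2 against 262.3), with 1.56 log2 at its other probe set. Maob, which breaks down amines, was 2.25-fold lower (100.4 against 226.3). As deposited, Ddc, the next enzyme of serotonin synthesis after Tph1, was at least 1.98-fold lower (13.1 against 154.1), and the receptor gene Htr7 at least 1.81-fold lower (30.8 against 140.4). Under hybridisation control scaling the bounds were -0.48 log2 for Ddc and -0.35 for Htr7. The serotonin transporter gene Slc6a4 was under the floor on both arrays, with 11.2 on day 1 and 15.2 on day 0.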

How the data were processed

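The deposited values are MAS 5 signals, an intensity per probe set on a linear scale, made by the authors with the Affymetrix Microarray Suite 5.0 from 1 pool of RNA and 1 array per day, per the labels' protocols. No label states the scaling target; both arrays have the same trimmed mean. Scaling both arrays to 1 trimmed mean carries any difference in RNA content or background into every ratio.

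Of 45037 probe sets that were not controls, 34945 had 1 gene symbol, updated through gene identifiers to RefSeq symbols (34741 matched), 932 had several and 9160 were unnamed here. Ratios, floor and counts were computed with Python 3.11.15, numpy 2.4.6 and pandas 2.3.3. A gene was represented by its probe set with the highest mean deposited signal, also under other scalings. Named genes were all members, the 3 largest ratios of each list, and a fixed set of names. Pthlh has no named probe set here. Members, lists and alternatives were chosen with earlier results of these data known. The calling was run on simulated data with large planted changes and a set noise (log2 SD 0.25 on each array). That run checks the code and says nothing on the error of the calls made here. Protein sequences were not used here.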

Additional observations from a re-analysis of the deposited data

How the results depend on the processing

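As deposited, 2 member genes and 4 member probe sets were at least 2-fold lower on day 1 and 0 of either were higher. With median centring and with housekeeping scaling, 1 gene and 1 probe set were at least 2-fold higher, where 14.2% of all measured genes were. With ribosomal protein scaling, 1 gene and 1 probe set were lower and 2 genes and 3 probe sets higher, where 7.66% of all genes were lower and 20.4% higher. With hybridisation control scaling, 0 genes and 0 probe sets were lower, 2 genes and 3 probe sets higher, and the median log2 ratio of the member genes was 0.35, where 2.28% of all genes were lower and 48.7% higher, since the factor moved all genes upward. With a gene's probe sets averaged, 1 gene, Stat5a, was lower (11.3% of all genes). Leaving out shared probe sets kept 4 member genes, Jak2, Cish, Socs2 and Tph1, so Stat5a, Stat5b and Ghr had no ratio. There 1 gene, Socs2, and 1 probe set were lower (13.6% of all genes). At 1.5-fold, 4 genes and 7 probe sets were lower and 2 genes and 3 probe sets higher (27.2% and 20.4% of all genes), and at 3-fold, 1 gene and 1 probe set were lower (4.33% of all genes). Averaging put Ghr at 0.10 log2. No member gene, member probe set or list median past 2-fold turned to the other side of 0 in the alternatives that gave it a ratio, which were 10 for Stat5a, 11 for Socs2 and 9 for their probe sets. Signals near the floor of 77.7, as for Tph1, limit what can be seen. No paired analysis was possible because each day has 1 array.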
